A study of Mus musculus with 7 samples.

Results

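The 10 genes described here encode receptors and surface proteins of endothelial cells and were measured in whole mouse embryos of 3 Adnp genotypes. They were Emcn, Cd34, Plvap, Tie1, Tek, Kdr, Flt1, Pecam1, Cdh5 and Eng. All were chosen by symbol among the 12393 gene symbols on the array, with earlier results of these data known. On the array, 14 probe sets carried 1 of these symbols and no other. RNA came from embryos on embryonic day 9, C57BL/6 in strain and mixed in sex per the labels, freed of yolk sac and amnion before freezing. The knockout embryos lacked Adnp (2 arrays), the heterozygous embryos carried 1 intact copy (3 arrays) and their wild-type littermates carried 2 copies (2 arrays). Each array received RNA of 2 littermates of the same genotype, so 14 embryos stand behind the 7 arrays, and genotypes rest on PCR of yolk sac DNA for Adnp and the neomycin resistance gene. RNA came from whole embryos, so the measurements are not specific to endothelium, and the deletion was present in all cells of the knockout embryos. The design text gives as the aim of the study the search for genes downstream of ADNP.

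Endothelial cells line the heart and vessels and form in the mouse embryo shortly before the stage sampled here. VEGF-A acts on them through the receptor tyrosine kinases KDR and FLT1, of which KDR carries most of the signal and FLT1 acts largely as a trap for the ligand. TEK binds the angiopoietins, and TIE1 is its partner with no established ligand of the same kind. Endoglin is a co-receptor for BMP9 and TGF-beta ligands, VE-cadherin (Cdh5) and PECAM1 hold neighbouring cells together, and endomucin (Emcn) and CD34 are sialomucins that coat the luminal surface. PLVAP builds the diaphragms of caveolae, fenestrae and transendothelial channels. Mouse embryos that lack Kdr, Tek, Tie1, Cdh5 or Eng die before or around birth with vascular defects.

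The arrays read brightness, as MAS5 signals that are linear in brightness, with medians of 55.5 to 57.4 over the 7 arrays. Differences were tested on log2(signal + 3.8), which understates changes of dim genes, with limma and Benjamini-Hochberg adjustment over 8019 genes, and a difference passed at an adjusted p under 0.05. Each gene is given by its brightest probe set, and all 10 genes passed the filter on dim genes. With 7 arrays the precision of each value is limited. The loss of Adnp RNA could not be checked, because the 1 probe set for Adnp, with signals of 1880 and 1682 in the knockout, 986 to 1196 in heterozygotes and 897 and 1026 in wild type, is annotated to its neighbour Dpm1 as well.

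Emcn, Cd34 and Plvap, 3 of the 10 genes, fell in the knockout to 0.425 to 0.528 of the level in wild type, and the other 7 did not pass the test. Against wild type 3 genes fell and 0 rose, where 3.32% of all genes tested passed, 1.36% lower and 1.96% higher in the knockout. At an unadjusted p under 0.05 the count was also 3 of 10, where 19.1% of all genes passed. Against heterozygotes the same 3 genes fell and 0 rose, where 5.86% of all genes passed, 2.76% lower and 3.11% higher, and 22.7% had an unadjusted p under 0.05. In all, 1.12% of the genes tested fell in both comparisons, which share the knockout arrays and so are not independent. Because the 10 genes were chosen with earlier results of these data known, setting their counts beside such shares, here or below, is not a test of the set. The median log2 difference of the 10 genes was -0.21 against wild type and -0.29 against heterozygotes, beside medians of -0.015 and -0.023 over all genes. With each gene taken as the mean of its probe sets, the medians of the 10 were -0.53 and -0.35. In a whole embryo, fewer endothelial cells and less RNA per endothelial cell cannot be told apart.

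**Figure D1:**
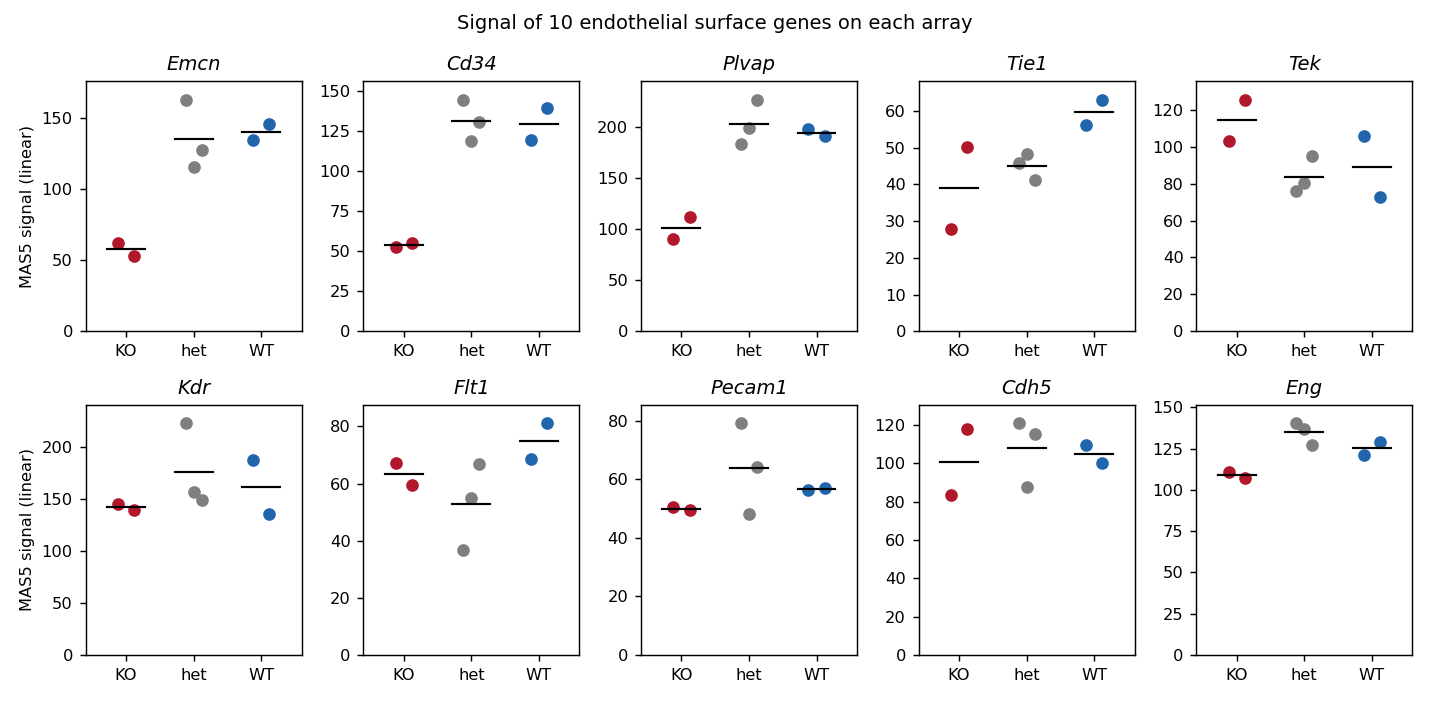
MAS5 signal (linear, y axis) of the brightest probe set of each of the 10 genes on every array, for knockout (KO, 2 arrays), heterozygous (het, 3) and wild-type (WT, 2) pools; points are arrays and horizontal bars group means. The knockout points of Emcn, Cd34 and Plvap lie at 52.7 to 112.2, each below all 5 other arrays for the same gene. Those of Eng also lie below the 5, by a small margin, while those of Tie1, Tek, Kdr, Flt1, Pecam1 and Cdh5 do not.

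Emcn, the endothelial sialomucin endomucin, read 62.2 and 53.0 in the knockout, 163.2, 116.0 and 127.4 in heterozygotes and 134.8 and 146.0 in wild type. Both knockout arrays lay below every other array, and the lowest heterozygous array was still well above them. The log2 difference was -1.23 against wild type (95% interval -1.66 to -0.81, limma, adjusted p = 0.00848), which is 0.425 of the wild-type level. Against heterozygotes it was -1.17 (95% interval -1.56 to -0.78, adjusted p = 0.00578). Emcn had group means of 57.6 ± 6.51 in knockout, 135.5 ± 24.6 in heterozygous and 140.4 ± 7.92 in wild-type pools (SD, n = 2, 3 and 2).

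Cd34, a sialomucin of endothelium that also marks blood progenitors, read 52.7 and 55.4 in the knockout, 144.7, 119.0 and 130.4 in heterozygotes and 119.2 and 139.7 in wild type. The knockout arrays were close to each other and far below the remaining 5. Its log2 difference was -1.20 against wild type (95% interval -1.58 to -0.82, limma, adjusted p = 0.0062), or 0.435 of the wild-type level, and -1.22 against heterozygotes (95% interval -1.57 to -0.87, adjusted p = 0.00235). The intervals of the 2 sialomucins overlap for most of their length.

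Plvap, the diaphragm protein, read 90.8 and 112.2 in the knockout, 183.9, 199.2 and 227.0 in heterozygotes and 197.7 and 191.3 in wild type. Both knockout arrays lay below every other array, while heterozygous and wild-type arrays overlapped. The log2 difference was -0.92 against wild type (95% interval -1.28 to -0.56, limma, adjusted p = 0.0144), or 0.528 of the wild-type level, and -0.98 against heterozygotes (95% interval -1.31 to -0.65, adjusted p = 0.00575).

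The 3 falls against wild type lost their calls, though not their size, without wild-type replicate 2 or knockout replicate 2. Without wild-type replicate 2 the log2 differences were -1.18 for Emcn, -1.09 for Cd34 and -0.94 for Plvap (limma, adjusted p 0.0908, 0.0715 and 0.106), and without knockout replicate 2 they were -1.13, -1.23 and -1.07 (adjusted p 0.091, 0.0514 and 0.0535). In these fits the genes called among all 8019 also dropped, to 57 and 36, beside 266 with every array. Plvap lost its call against wild type also without wild-type replicate 1 (-0.90, adjusted p = 0.0608) or knockout replicate 1 (-0.77, adjusted p = 0.121). Against heterozygotes Cd34 passed whichever array was left out, Emcn passed except without knockout replicate 2 (-1.06, adjusted p = 0.0793) and Plvap except without knockout replicate 1 (-0.83, adjusted p = 0.0722).

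The promoters of 7 of the 10 genes were found in the RefSeq promoter table of GRCm38.p6, each spanning 250 bases before to 50 bases after the start of the gene, and Plvap, Pecam1 and Cdh5 were not matched. ETS factors, among them FLI1, ERG and ETV2, are the transcription factors best known for driving endothelial genes, and their binding sites share the core GGAA. Those of Emcn and Cd34 are shown because these genes fell together, and those of Tie1 and Tek because they are receptors of 1 family that did not pass, with the GGAA core in capitals on either strand (GGAA or TTCC).
Emcn, chr3:137340828-137341127, plus strand: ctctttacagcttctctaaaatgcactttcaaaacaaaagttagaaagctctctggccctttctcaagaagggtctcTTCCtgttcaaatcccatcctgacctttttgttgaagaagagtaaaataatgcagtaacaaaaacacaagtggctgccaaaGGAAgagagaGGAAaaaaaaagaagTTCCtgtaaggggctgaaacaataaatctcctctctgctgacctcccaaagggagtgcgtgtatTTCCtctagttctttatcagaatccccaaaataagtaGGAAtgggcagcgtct
Cd34, chr1:194938571-194938870, plus strand: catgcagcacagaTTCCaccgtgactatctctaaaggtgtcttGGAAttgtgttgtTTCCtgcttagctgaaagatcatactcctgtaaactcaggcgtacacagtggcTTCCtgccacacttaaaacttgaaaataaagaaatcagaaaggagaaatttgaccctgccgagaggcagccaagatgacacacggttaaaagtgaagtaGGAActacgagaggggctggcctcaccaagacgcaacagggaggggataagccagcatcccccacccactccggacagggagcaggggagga
Tie1, chr4:118489800-118490099, minus strand: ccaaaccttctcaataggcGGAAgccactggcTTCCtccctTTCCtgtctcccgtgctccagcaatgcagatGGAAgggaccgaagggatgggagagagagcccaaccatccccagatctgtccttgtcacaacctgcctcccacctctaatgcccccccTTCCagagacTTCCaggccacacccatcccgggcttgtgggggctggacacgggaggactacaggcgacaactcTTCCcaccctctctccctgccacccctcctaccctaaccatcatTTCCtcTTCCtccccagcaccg
Tek, chr4:94739039-94739338, plus strand: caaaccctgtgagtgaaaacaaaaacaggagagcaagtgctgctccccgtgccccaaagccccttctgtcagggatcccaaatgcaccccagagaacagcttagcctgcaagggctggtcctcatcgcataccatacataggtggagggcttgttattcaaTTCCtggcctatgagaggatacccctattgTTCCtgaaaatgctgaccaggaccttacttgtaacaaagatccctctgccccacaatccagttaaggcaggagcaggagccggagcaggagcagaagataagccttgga

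The Emcn promoter held 6 GGAA cores over both strands, that of Cd34 5, that of Tie1 9 and that of Tek 2, and the promoters of Kdr, Flt1 and Eng held 5, 4 and 4. Among all 32851 promoters of the table, 96.0% held at least 1 such core, with a median of 3, while 28.6% held 5 or more and 1.6% held 9 or more. Overlapping matches were counted separately. Kdr, which did not pass, held as many cores as Cd34. For the core of the hypoxia response element only the form ACGTG was counted, on either strand. It occurred in 0 of the 7 promoters and in 19.6% of all promoters. The GATA motif, counted only as AGATAA, occurred in that of Tek alone and in 11.2% of all. Other forms, such as GCGTG and TGATAA, were not counted and do occur in the Emcn promoter on either strand. These letters describe the windows shown and say nothing of binding.

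The receptor tyrosine kinases did not pass in any comparison. Kdr, the main VEGF-A receptor, read 145.2 and 139.2 in the knockout, 222.4, 156.0 and 148.7 in heterozygotes and 187.5 and 135.2 in wild type. The knockout and wild-type arrays overlapped, and heterozygous replicate 1 gave the highest value. The log2 difference against wild type was -0.16 with a 95% interval of -0.64 to 0.32 (limma, adjusted p = 0.747), so that levels from 0.641 to 1.25 of wild type lie within it. Against heterozygotes it was -0.28 (95% interval -0.71 to 0.16, adjusted p = 0.456).

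Tek, the angiopoietin receptor, read 103.1 and 125.6 in the knockout, 76.0, 80.3 and 94.8 in heterozygotes and 105.6 and 73.0 in wild type. It alone of the 10 genes had a positive difference against wild type, 0.36 (95% interval -0.12 to 0.84, limma, adjusted p = 0.41). Against heterozygotes, where the groups did not overlap, the difference was 0.43 (95% interval -0.0042 to 0.87, adjusted p = 0.225).

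Tie1, the partner of TEK, read 27.8 and 50.2 in the knockout, 45.7, 48.4 and 41.3 in heterozygotes and 56.1 and 63.1 in wild type. Its knockout arrays spanned the heterozygous values. The log2 difference was -0.62 against wild type (95% interval -1.24 to 0.0041, limma, adjusted p = 0.266) and -0.24 against heterozygotes (95% interval -0.81 to 0.32, adjusted p = 0.625). It was -0.23 against wild type without knockout replicate 1 and -1.002 without knockout replicate 2, so the value depends on which knockout array is used.

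Flt1, the second VEGF-A receptor, read 67.1 and 59.4 in the knockout, 36.8, 55.1 and 66.7 in heterozygotes and 68.6 and 81.1 in wild type. The log2 difference was -0.23 against wild type (95% interval -0.82 to 0.37, limma, adjusted p = 0.708) and 0.28 against heterozygotes (95% interval -0.27 to 0.82, adjusted p = 0.551). The knockout arrays lay below both wild-type arrays and overlapped the heterozygous ones.

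The junction proteins and endoglin did not pass either. Pecam1, an adhesion molecule of endothelium, platelets and leukocytes, read 50.4 and 49.5 in the knockout, 79.2, 48.3 and 64.4 in heterozygotes and 56.3 and 57.2 in wild type. Its log2 difference was -0.17 against wild type (95% interval -0.71 to 0.37, limma, adjusted p = 0.762) and -0.31 against heterozygotes (95% interval -0.80 to 0.19, adjusted p = 0.458). The knockout arrays lay just below both wild-type arrays but within the heterozygous range.

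Cdh5, the cadherin of endothelial junctions, read 83.3 and 118.0 in the knockout, 120.9, 87.6 and 115.3 in heterozygotes and 109.5 and 100.1 in wild type. All 3 genotypes overlapped. Its log2 difference was -0.075 against wild type (95% interval -0.55 to 0.40, limma, adjusted p = 0.899) and -0.10 against heterozygotes (95% interval -0.54 to 0.33, adjusted p = 0.802).

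Eng, the BMP9 co-receptor, read 111.1 and 107.2 in the knockout, 140.4, 137.2 and 127.5 in heterozygotes and 121.3 and 129.2 in wild type. Both knockout arrays were the lowest of the 7, by a small margin. The log2 difference was -0.19 against wild type (95% interval -0.52 to 0.14, limma, adjusted p = 0.527) and -0.30 against heterozygotes (95% interval -0.60 to 0.0022, adjusted p = 0.223). A level below 0.698 of wild type lies outside the first interval, whereas the estimates of Emcn, Cd34 and Plvap lay between 0.425 and 0.528.

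**Figure D2:**
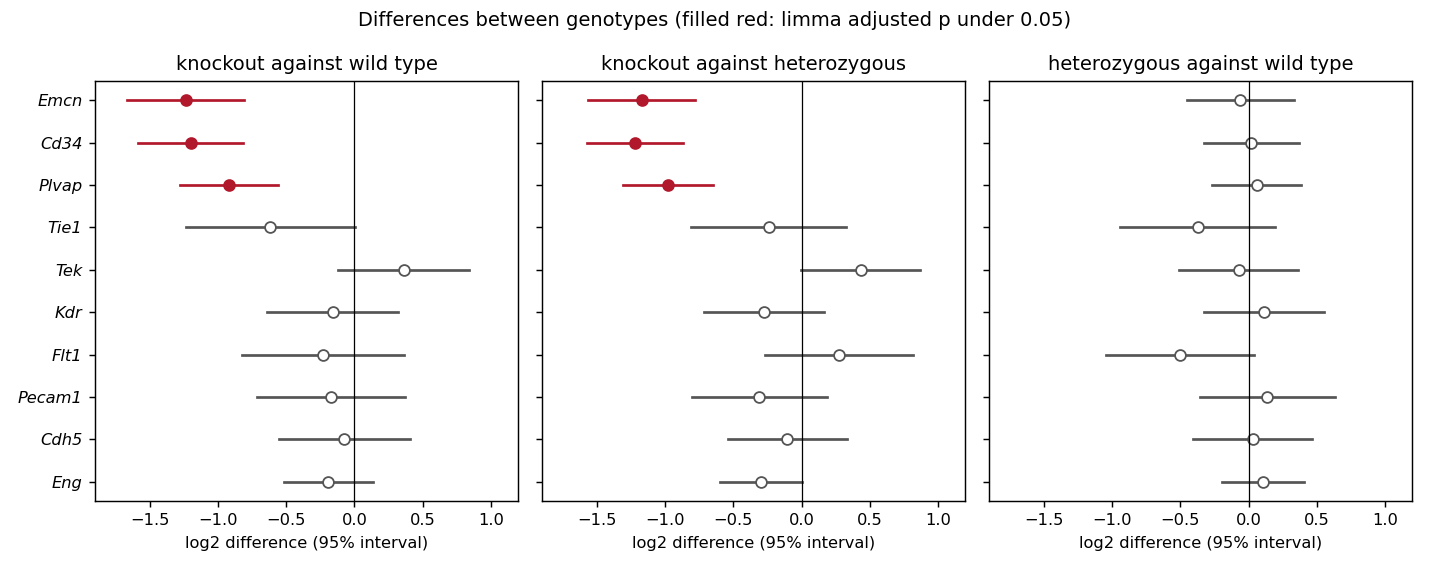
Log2 difference (x axis) of each of the 10 genes with its 95% interval from limma, in 3 comparisons; filled red points have an adjusted p under 0.05. Emcn, Cd34 and Plvap lie between -1.23 and -0.92 in both knockout comparisons, and in the comparison of heterozygotes with wild type all 10 intervals include 0.

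Counted by overlap alone, both knockout arrays lay below both wild-type arrays in 7 of the 10 genes and above them in 0, where the groups did not overlap in 52.9% of all genes, 28.3% lower and 24.7% higher in the knockout. Against the 3 heterozygous arrays 5 genes lay below and 1, Tek, above, where 40.1% of all genes did not overlap, 21.7% lower and 18.3% higher. Emcn, Cd34, Plvap and Eng, 4 of the 10, were below all 5 other arrays, as were 16.5% of all genes. The sign of the difference against wild type was negative in 9 of 10 genes and in 52.3% of all genes.

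No difference between heterozygous and wild-type embryos passed in these genes. Of the 10 genes 0 passed, as did 0 of all 8019 genes by limma, of which 284 had an unadjusted p under 0.05 (3.54%). None of the 10 was among the latter. The median log2 difference of the 10 was 0.025. For the genes that fell in the knockout the heterozygous intervals were narrow around 0, at -0.45 to 0.33 for Emcn, -0.33 to 0.37 for Cd34 and -0.27 to 0.38 for Plvap. Thus a heterozygous level of Cd34 below 0.796 of wild type lies outside its interval. The largest differences were those of Flt1 (-0.51, 95% interval -1.05 to 0.038, limma, adjusted p = 0.999) and Tie1 (-0.37, 95% interval -0.94 to 0.19, adjusted p = 0.999), the 2 genes of the 10 in which all heterozygous arrays lay below both wild-type arrays. Over all genes 17.4% did not overlap there, 8.27% lower and 9.12% higher in heterozygotes.

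Flt1, Cdh5 and Eng were each measured by more than 1 probe set, and the probe sets of Flt1 and Cdh5 differed. For Cdh5 the dimmer probe set 1422047_at read 18.8 and 36.9 in the knockout, 74.5, 28.6 and 55.6 in heterozygotes and 45.1 and 71.4 in wild type. Its log2 difference against wild type was -0.9996 when each probe set was fitted by itself (95% interval -2.07 to 0.07, limma, adjusted p = 0.387), beside -0.075 for the brighter 1433956_at. That fit and its adjustment covered all 20380 probe sets with a single symbol, without the filter on dim genes. The 2 dimmer probe sets of Flt1, 1419300_at and 1454037_a_at, lay under the filter on dim genes and gave -0.63 and -0.73 against wild type and -0.58 and -0.57 against heterozygotes, where the brighter 1451756_at gave 0.28. None of these differences passed. The probe sets of Eng had differences of -0.19 and -0.24 against wild type. Emcn, Cd34, Plvap, Tie1, Tek, Kdr and Pecam1 had 1 probe set each, so their values have no such check.

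**Figure D3:**
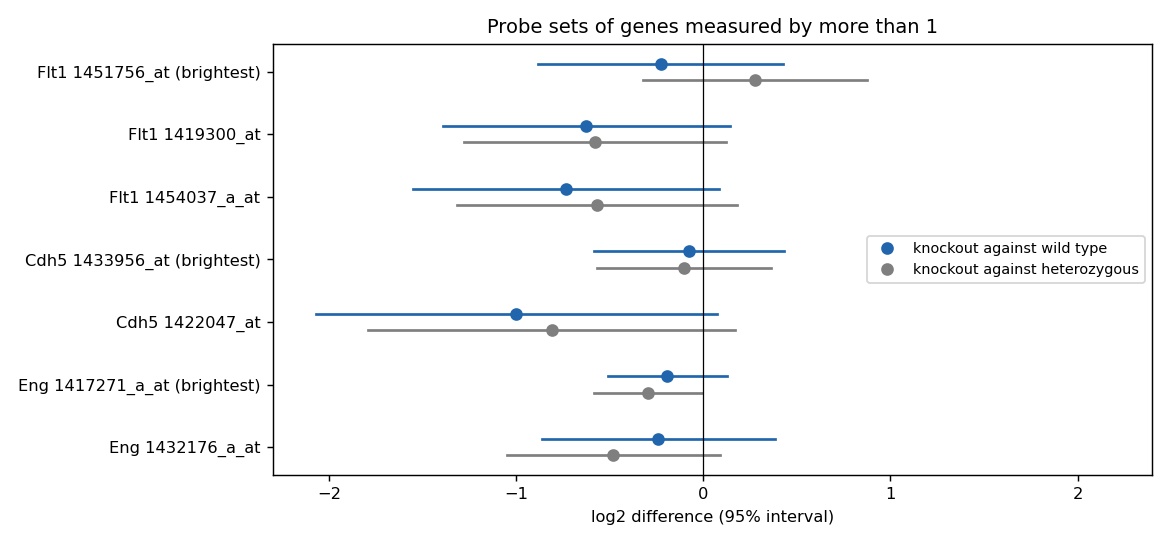
Log2 difference (x axis) with its 95% interval for each probe set of Flt1, Cdh5 and Eng, each probe set fitted by itself with limma, for knockout against wild type (blue) and knockout against heterozygous (grey). The dimmer probe set of Cdh5 lies at -0.9996 against wild type and the brighter at -0.075, with overlapping intervals.

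Few genes of the other endothelial lists were called, as was so for all genes tested. Over all genes 3.32% passed against wild type and 5.86% against heterozygotes, with medians of -0.015 and -0.023. Small counts beside such shares are not a result about the lists. Of 27 other endothelial receptors and surface proteins tested, of 37 listed, 0 passed against wild type, with a median of -0.11. Against heterozygotes 1 rose and 1 fell, with a median of -0.20. The fallen gene was Plxnd1, a semaphorin receptor of endothelium, with 74.2 and 96.5 in the knockout, 167.1, 125.3 and 157.9 in heterozygotes and 122.5 and 147.3 in wild type (-0.79 against heterozygotes, SE 0.18, limma, adjusted p = 0.0341). The risen gene was Nrp2, a co-receptor for VEGF and semaphorins, with 256.4 and 206.0 in the knockout, 116.4, 136.7 and 141.8 in heterozygotes and 154.8 and 164.0 in wild type (0.79 against heterozygotes, SE 0.15, adjusted p = 0.0146). Against wild type the differences were -0.64 for Plxnd1 (adjusted p = 0.111) and 0.52 for Nrp2 (adjusted p = 0.117). Plxnd1 lost its call without heterozygous replicate 1 or 3 or either knockout array (adjusted p 0.0775 to 0.233), and Nrp2 lost its call without either knockout array (0.06 and 0.162).

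Of 18 endothelial transcription factors tested, of 23 listed, 0 passed against wild type and 1 fell against heterozygotes (medians -0.11 and -0.086). Hey1, a target of Notch in arterial endothelium, read 93.7 and 99.4 in the knockout, 171.3, 143.6 and 155.3 in heterozygotes and 129.9 and 181.5 in wild type, a difference of -0.67 against heterozygotes (SE 0.17, limma, adjusted p = 0.0443) and -0.65 against wild type (adjusted p = 0.0843). The call against heterozygotes was lost without heterozygous replicate 1 or 3 or either knockout array (adjusted p 0.0981 to 0.223), and the difference from wild type passed without wild-type replicate 1 (-0.89, adjusted p = 0.0468). Fli1, an ETS factor named after its values were seen, read 39.4 and 40.6 in the knockout, 73.6, 64.3 and 64.3 in heterozygotes and 69.2 and 63.6 in wild type. Its knockout arrays lay below all 5 others, as in 16.5% of all genes. It did not pass (-0.68 against wild type, limma, adjusted p = 0.0956, and -0.70 against heterozygotes, adjusted p = 0.0515). The other ETS factors tested, Ets1, Ets2, Elk3 and Etv2, did not pass either, at -0.28, -0.45, -0.09 and 0.27 against wild type.

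Among ligands 11 of 21 were tested, and 1 of them fell in both knockout comparisons. Cxcl12, the chemokine that attracts CXCR4-positive cells, read 166.3 and 194.3 in the knockout, 333.4, 338.5 and 327.2 in heterozygotes and 290.8 and 450.4 in wild type. Its log2 difference was -0.99 against wild type (SE 0.19, limma, adjusted p = 0.02) and -0.88 against heterozygotes (SE 0.17, adjusted p = 0.0171). Taken as the mean of its probe sets the values were -0.53 (adjusted p = 0.189) and -0.49 (0.141), so its call rests on the brightest probe set. With 1 array left out, it was lost against wild type without wild-type replicate 2 (-0.68, adjusted p = 0.14) or either knockout array (0.091 and 0.153), and against heterozygotes without heterozygous replicate 3 or either knockout array (0.0516 to 0.158). Vegfa, the ligand of Kdr and Flt1, read 90.9 and 98.3 in the knockout, 80.1, 90.9 and 126.3 in heterozygotes and 98.7 and 106.2 in wild type (-0.11 against wild type, adjusted p = 0.839). The angiopoietins, ligands of TEK, did not pass the filter on dim genes. Of 13 intracellular and secreted endothelial proteins tested 0 passed in either comparison. The smallest p values against wild type belonged to Sh2d3c, a signalling adaptor (-0.48, adjusted p = 0.229), and Ctnnd1, the p120 catenin of cadherin junctions (-0.39, adjusted p = 0.231). Genes such as Ctnnb1 and Gnas in this list, and Sox17 and Hhex among the transcription factors, are not confined to endothelium. In whole embryos their values do not speak for endothelium alone.

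**Figure D4:**
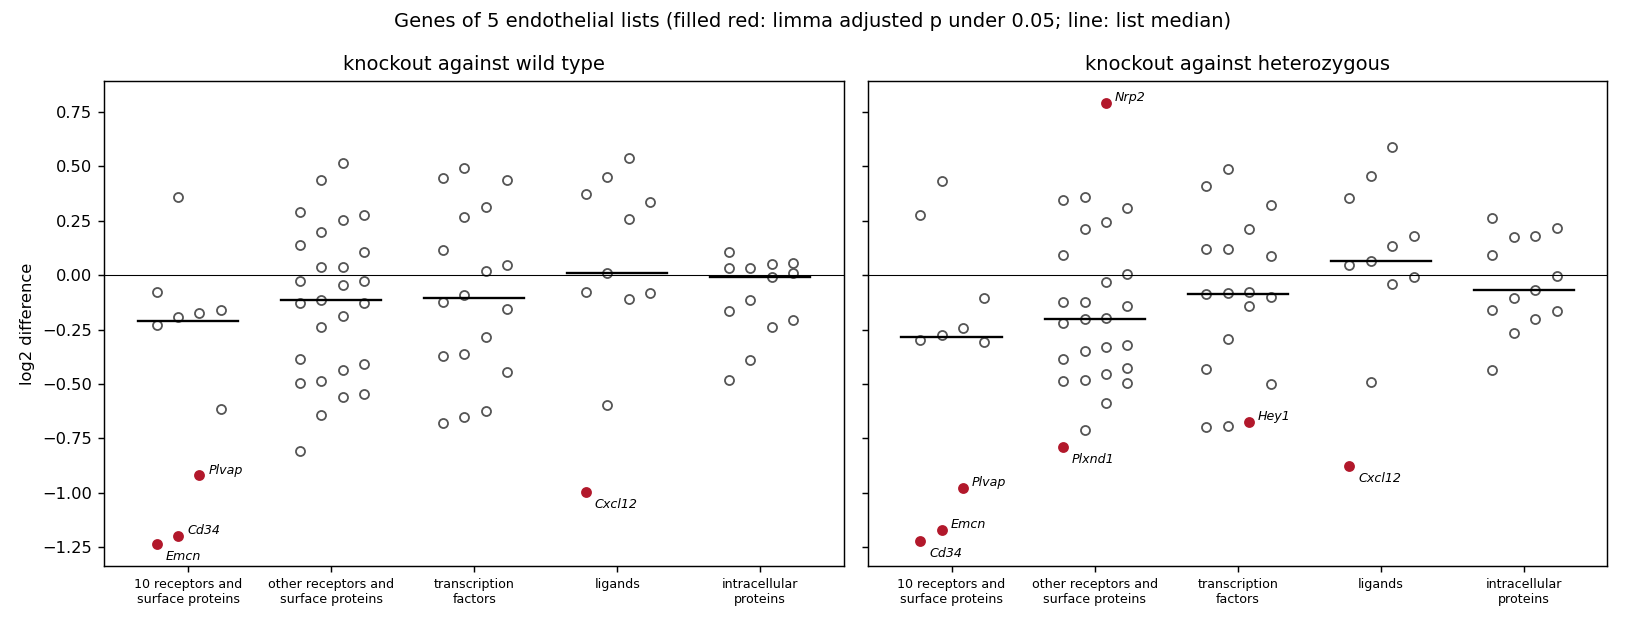
Log2 difference (y axis) of every tested gene in 5 lists of endothelial genes, for knockout against wild type (left) and knockout against heterozygous (right); filled red points have an adjusted p under 0.05 and bars are list medians. The named points are the only ones that passed: Emcn, Cd34, Plvap and Cxcl12 on the left, with Plxnd1, Nrp2 and Hey1 added on the right.

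Markers of other tissues also separated the genotypes. Genes of the visceral endoderm, the layer of the yolk sac that absorbs nutrients and makes plasma proteins, rose in 10 of 16 against wild type and in 14 of 16 against heterozygotes, and their summed signal was 11245 and 13494.5 in the knockout, 810 to 1986 in heterozygotes and 839 and 3042 in wild type. The filter on dim genes used the mean over all 7 arrays, so genes dim on the other 5 could enter the test through the knockout alone. Cubn, for example, read 658.2 and 700.2 in the knockout and 14.0 to 71.5 elsewhere. The counts therefore lean toward rises. None of the 16 read 0 on any array, but some lay near the floor, down to 0.5 for Apoc2 in heterozygous replicate 1. By the smallest p against wild type the leading genes were Apoe (log2 difference 3.00), Cited1 (1.73), Lrp2 (1.68) and Cubn (4.08) (limma, adjusted p 0.00129 to 0.00365). Among the 5 arrays that are not knockout, the list was highest in wild-type replicate 1 and heterozygous replicate 2, with mean log2 signals of 7.04 and 6.56 against 5.14 to 5.94 in the other 3. On those 2 arrays Emcn read 134.8 and 116.0 and Plvap 197.7 and 199.2, where the other 3 read 127.4 to 163.2 and 183.9 to 227.0, and Cd34 read 119.2 and 119.0 where the other 3 read 130.4 to 144.7. The part of this tissue in the falls of the 3 genes was not tested.

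**Figure D5:**
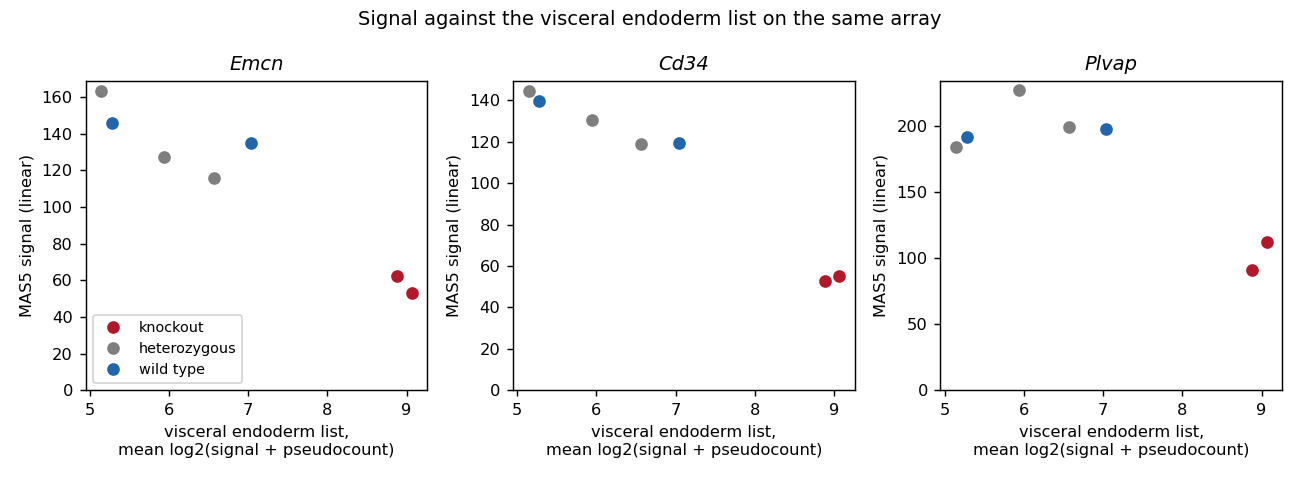
MAS5 signal (linear, y axis) of Emcn, Cd34 and Plvap against the mean log2(signal + pseudocount) of 16 visceral endoderm genes on the same array (x axis), for knockout (red), heterozygous (grey) and wild-type (blue) pools; each point is 1 array. The knockout arrays, at 8.88 and 9.07 on the x axis, are apart from the other 5, which span 5.14 to 7.04 and show Plvap at 183.9 to 227.0.

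Genes of the response to low oxygen rose in 10 of 13 against wild type and 11 of 13 against heterozygotes, led against wild type by Bnip3 (1.73), Ddit4 (1.62), Ero1a (1.11) and Pfkfb3 (1.61) (limma, adjusted p 8.47e-05 to 0.00392). Their summed signal was 6799 and 7012 in the knockout, 3164 to 3373 in heterozygotes and 3009 and 3401 in wild type. Vegfa, named after its value was seen, was 1 of the 3 that did not pass against wild type. It was the only 1 of the 13 below 0 there (-0.11). In the list of endocardium and heart muscle 3 of 13 fell in both comparisons, Myl2 (-2.59 against wild type, limma, adjusted p = 9.35e-05), Nppa (-2.08, 0.000744) and Cdh11 (-0.60, 0.0259). Of the 13, 8 had a difference below 0 against wild type. Npr3, a marker of endocardium named after its value was seen, was not among these 8 (0.013, limma, adjusted p = 0.988). This 1 gene does not speak for the endocardium. The part of these genes in the falls of Emcn, Cd34 and Plvap was not tested.

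Blood and mural cells were less distinct. Of 10 primitive erythroid genes 0 passed against wild type or heterozygotes (medians -0.13 and 0.083), and Gata1 (-0.47) and Klf1 (-0.53) did not pass against wild type (limma, adjusted p = 0.259 and 0.375). Their summed signal was 11005 and 17548.5 in the knockout, 10570 to 13073 in heterozygotes and 12608 and 17722 in wild type, with overlap of all 3 genotypes. Of 15 macrophage and megakaryocyte genes on the array 5 passed the filter and 0 the test. Pf4, platelet factor 4, read 24.0 and 15.9 in the knockout, 99.4, 40.0 and 52.6 in heterozygotes and 45.1 and 104.9 in wild type (-1.64 against wild type, adjusted p = 0.0781), and Gp5, a platelet glycoprotein, had a difference of -0.76 (adjusted p = 0.194). Their summed signal was 239.6 and 262.6 in the knockout, 296.4 to 327.1 in heterozygotes and 282.2 and 346.0 in wild type. Since Cd34 and Pecam1 are also known from blood cells, these values stand beside theirs, and their part was not tested. Of 6 genes of pericytes and smooth muscle 0 passed, with Pdgfrb, the PDGF receptor of pericytes, at -0.60 (adjusted p = 0.184) and Tagln at -0.39 (0.302) against wild type.

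Single arrays also stood apart in genes of other origin. The decidual gene Prl8a2 read 46.1 and 138.4 in the knockout, 828.6, 37.6 and 27.4 in heterozygotes and 37.4 and 16.2 in wild type. Heterozygous replicate 1, where it was brightest, also had the highest values of Emcn, Cd34, Kdr, Pecam1, Cdh5 and Eng, but not of Plvap, Tie1, Tek and Flt1. Its Flt1 value, 36.8, was the lowest of the 7 arrays. The Plvap value of that array, 183.9, was the lowest of the 5 that are not knockout. Without that array the differences against heterozygotes were -1.03 for Emcn, -1.15 for Cd34 and -1.05 for Plvap (limma, adjusted p 0.0116, 0.00749 and 0.00767). In the trophoblast and decidua list 0 of 7 passed, and Plac1, a placental gene, had the smallest p against wild type (0.84, adjusted p = 0.0596), followed by Des, a gene of muscle and decidual cells (0.27, adjusted p = 0.487). Kdm5d, a Y-linked gene, read 55.3 and 102.9 in the knockout, 46.7 to 90.3 in heterozygotes and 10.0 and 4.3 in wild type (2.91 against wild type, limma, adjusted p = 0.00559). Both wild-type pools were thus below all other arrays in this gene, although the labels give the sex as mixed. The difference of heterozygotes from wild type was 2.59 in this gene and did not pass. In comparisons with wild type, a difference in the sex of the pooled embryos cannot be told apart from genotype. The part of sex was not tested.

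The 10 genes did not share a single pattern over the arrays. When each gene was compared with the mean standardised log2 signal of the other 9 over the 7 arrays, which share the genotype differences above, Pearson's r was 0.879 for Cd34, 0.856 for Emcn and 0.848 for Plvap, 0.420 to 0.595 for Tie1, Kdr, Pecam1, Cdh5 and Eng, and -0.385 and -0.620 for Flt1 and Tek. Outside the 10, the genes most like their mean pattern were Ovca2 (r = 0.992), Wasf3 (0.991), Ddx6 (0.988), Smpdl3b (0.977) and Ssu72 (0.970), the highest of 8009 genes over only 7 arrays.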

How the data were processed

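The deposited values are MAS5 probe set intensities on a linear scale, per the submitters' processing notes. The sources used here give no MAS5 version. The values show scaling per array, with a trimmed mean of 150.0 to 150.1 on each. Of 22690 probe sets 20380 carried a single symbol in the annotation of the platform, 691 carried more, 1555 were not listed and 64 were array controls. Each gene was given by its brightest probe set, on log2(signal + 3.8), the pseudocount being the 10th percentile of all values, and genes under the 40th percentile of mean log2 signal were left out, which left 8019.

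Genotypes were compared by limma 3.58.1 under R 4.3.3, through lmFit and an eBayes step with the trend option, all 7 arrays in 1 fit, with 4 residual and 6.19 prior degrees of freedom. Two-sided p-values were adjusted by Benjamini-Hochberg over 8019 genes, with a threshold of 0.05, and every adjusted p is limma's. For the separate probe sets of Flt1, Cdh5 and Eng the adjustment ran over all 20380 probe sets with a single symbol. The fit was tested on simulated data. No embryo is shared between pools per the labels, and the litter of each pool is not given.

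The 10 genes and all lists were chosen with earlier results of these data known, and the Y-linked list was added later. Named genes from other lists were those that passed, up to 4 by the smallest p, or else the 2 of smallest p. Fli1, Vegfa, Npr3 and Prl8a2 were named after their values were seen. Alternatives covered the pseudocount, filter, scaling, trend, array weights, arrays in the fit, replicate block, choice of probe set, threshold and each array left out. Promoter sequences are RefSeq's (GRCm38.p6).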

Additional observations from a re-analysis of the deposited data

How the results depend on the processing

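Over 13 alternatives other than leaving out an array, Emcn, Cd34 and Plvap kept negative differences in both knockout comparisons, from -1.27 to -0.77, and their calls, except that Plvap did not pass with the replicate block (-0.92, adjusted p = 0.0533, against wild type and -0.90, 0.057, against heterozygotes). With the replicate block 72 genes passed between knockout and wild type and 76 between knockout and heterozygous, beside 266 and 470 without it. Under the block Cxcl12 also lost its calls (adjusted p = 0.0528 against wild type and 0.0639 against heterozygotes), as did Plxnd1 (0.156), Nrp2 (0.08) and Hey1 (0.158) against heterozygotes. With no intensity trend Cxcl12 (0.0567 and 0.0507), Plxnd1 (0.0596) and Hey1 (0.0714) lost theirs, with no filter Plxnd1 (0.0637) and Hey1 (0.0768), and Hey1 also with quantile normalization (0.0507) and with every probe set tested by itself (0.061). The replicate numbers were not taken to pair the pools. Deviations from the group means correlated at -0.294 to 0.00473 across 6 pairs of the same number. In wild type and knockout, with 2 arrays each, these deviations mirror each other, so the 6 pairs are not independent. They cannot show that the pools are unpaired. Between knockout and wild type 161 genes passed with no filter on dim genes, 174 with no intensity trend, 514 with array weights and 562 at a threshold of 0.1. Between knockout and heterozygous the counts were 306 with no filter, 262 with no trend and 962 at the threshold of 0.1. With 1 array left out the counts ran from 36 to 417 against wild type and from 67 to 545 against heterozygotes, and of the 10 genes 0 to 3 and 2 to 3 passed.

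Differences that changed sign had not passed in the full fit. With 1 array left out they ran from -0.39 to 0.071 for Kdr and -0.32 to 0.17 for Cdh5 (knockout against wild type), and from -0.63 to 0.14 for Tie1 and -0.35 to 0.14 for Cdh5 (knockout against heterozygous). In heterozygotes against wild type they ran from -0.20 to 0.039 for Emcn, -0.091 to 0.13 for Cd34, -0.023 to 0.13 for Plvap, -0.33 to 0.18 for Tek, -0.11 to 0.35 for Kdr, -0.023 to 0.31 for Pecam1, -0.056 to 0.17 for Cdh5, -0.43 to 0.19 for Cxcl12 and -0.21 to 0.26 for Hey1. With the replicate block Plvap was at -0.023 and Cdh5 at -0.023 there. As the mean of its probe sets Cdh5 was at -0.080 there, Flt1 at -0.29 between knockout and heterozygous, and the median of the 10 genes at -0.53 against wild type, beside -0.21. That move of the median comes from Flt1, Cdh5 and Eng, since averaging leaves genes with 1 probe set unchanged. The cause of the changes of sign was not tested. Signals of Tie1 and of the dimmer probe sets of Flt1 lay near the filter on dim genes, where the small number of arrays limits precision most.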
